A study of Mus musculus with 24 samples.

Results

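Abhd15, Zmat4, Nptx1, Slitrk6, Hpgd, Il1rl2 and Gimap9 are 7 genes with no established role in the pharyngeal arches that were chosen by their counts in libraries labelled Kat6a homozygous against those in wild type libraries of the same series. They are 7 of 26611 genes with an identifier in the count table, and all 7 were among the 14506 genes that passed the filter on low counts. Because that difference chose them, it is described below and not tested. The same holds for every comparison that uses wild type or Kat6a homozygous labelled libraries. Intervals given for the 7 genes in these comparisons make no allowance for the choice, so their stated coverage does not hold. Such intervals describe the spread between these libraries and are not tests, and the fold changes may be overstated in size. Of the genes named, 3 were lower in the Kat6a homozygous labelled libraries (Abhd15, Zmat4 and Nptx1) and 4 were higher (Slitrk6, Hpgd, Il1rl2 and Gimap9).

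RNA-seq was run on polyadenylated RNA of pharyngeal arches 1 and 2, the outgrowths that form the jaws and parts of the ear, from female C57BL/6 mouse embryos at E10.5. The 6 genotypes, with 4 libraries each, were Kat6a homozygous knockout, Dlx5 homozygous knockout, double heterozygous (1 mutant allele of Kat6a and 1 of Dlx5), Kat6a heterozygous, Dlx5 heterozygous and wild type. Each knockout genotype carried wild type alleles of the gene it does not name. The sources used here do not describe the mutant alleles, and they call the 4 libraries of a genotype biological replicates without naming the embryos. Where libraries came from parts of the same embryos or litters, p-values would measure only the spread between these libraries. The batches were 2 mouse facilities. All Kat6a homozygous labelled and wild type libraries came from batch 2, all Dlx5 homozygous labelled libraries came from batch 1, and the heterozygous groups spanned both.

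Kat6a encodes a histone acetyltransferase that works in a complex with bromodomain and ING proteins and keeps developmental genes active, and Dlx5 encodes a homeodomain factor of the lower jaw primordium. The 7 genes have no pathway in common. Abhd15 encodes an alpha/beta hydrolase domain protein known from mouse fat cells, where it binds the phosphodiesterase Pde3b. Zmat4 encodes a matrin-type zinc finger protein whose function is little known, and Nptx1 a secreted neuronal pentraxin that gathers AMPA-type glutamate receptors at synapses. Slitrk6 encodes a leucine-rich repeat membrane protein that is needed for the innervation of the mouse inner ear. Hpgd encodes the dehydrogenase that inactivates prostaglandins, Il1rl2 a receptor of the interleukin-1 receptor family, and Gimap9 a GTPase of a family best known from lymphocytes.

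Total counts ran from 10.4 to 28.2 M per library. Crest mesenchyme markers were abundant in all 24 libraries, with 636 to 1010 CPM of Prrx1 and 150 to 236 CPM of Twist1 (TMM-scaled CPM, the scale of all levels below unless given per kb). Kat6a itself had 228 ± 15 CPM in the libraries labelled Kat6a homozygous, 234 ± 21 CPM in Kat6a heterozygous libraries and 202 ± 41 CPM in wild type libraries (SD, n = 4 each), and its log2 fold change of 0.17 between homozygous labelled and wild type libraries was not called (SE 0.10, edgeR adjusted p = 0.474). Dlx5 had 62.6 ± 5.1 CPM in the libraries labelled Dlx5 homozygous and 69.4 ± 6.8 CPM in wild type libraries (SD, n = 4 each). Its level was higher in the homozygous labelled library in 4 of 16 pairs of these libraries, and with the batch term the log2 fold change was 0.03 (SE 0.11, 95% interval −0.19 to 0.25, edgeR adjusted p = 0.947). No loss of either gene was called where the labels give its homozygous knockout, and gene-level counts cannot show the deletion of a part of a gene. Dlx5 was lower in libraries labelled Kat6a homozygous, with 37.9 ± 3.3 CPM (SD, n = 4). Its log2 fold change over wild type libraries was −0.87 (SE 0.08, edgeR adjusted p = 1.46e-07), called in 36 of 36 alternatives. Summed neuron markers ran from 136 to 675 CPM over the 24 libraries, with the highest sums in replicate 2 of Kat6a heterozygous, wild type and Dlx5 heterozygous libraries, and replicate 2 had the highest sum among Kat6a homozygous labelled libraries, 420 CPM. Double heterozygous libraries had 240 to 435 CPM, with 418 CPM in replicate 3 and 435 CPM in replicate 4. Gap43, at 79.2 to 124 CPM, and Isl1, at 24 to 45.5 CPM, make up much of the low sums and varied little. The other tested neuron markers varied more in proportion, such as Tubb3 at 5.28 to 128 CPM, so the sums understate their variation. Values without the 4 replicate 2 libraries named here are given where they bear on a result; all double heterozygous libraries were kept in them, which leaves comparisons with that group unbalanced in neuron markers.

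**Figure D1:**
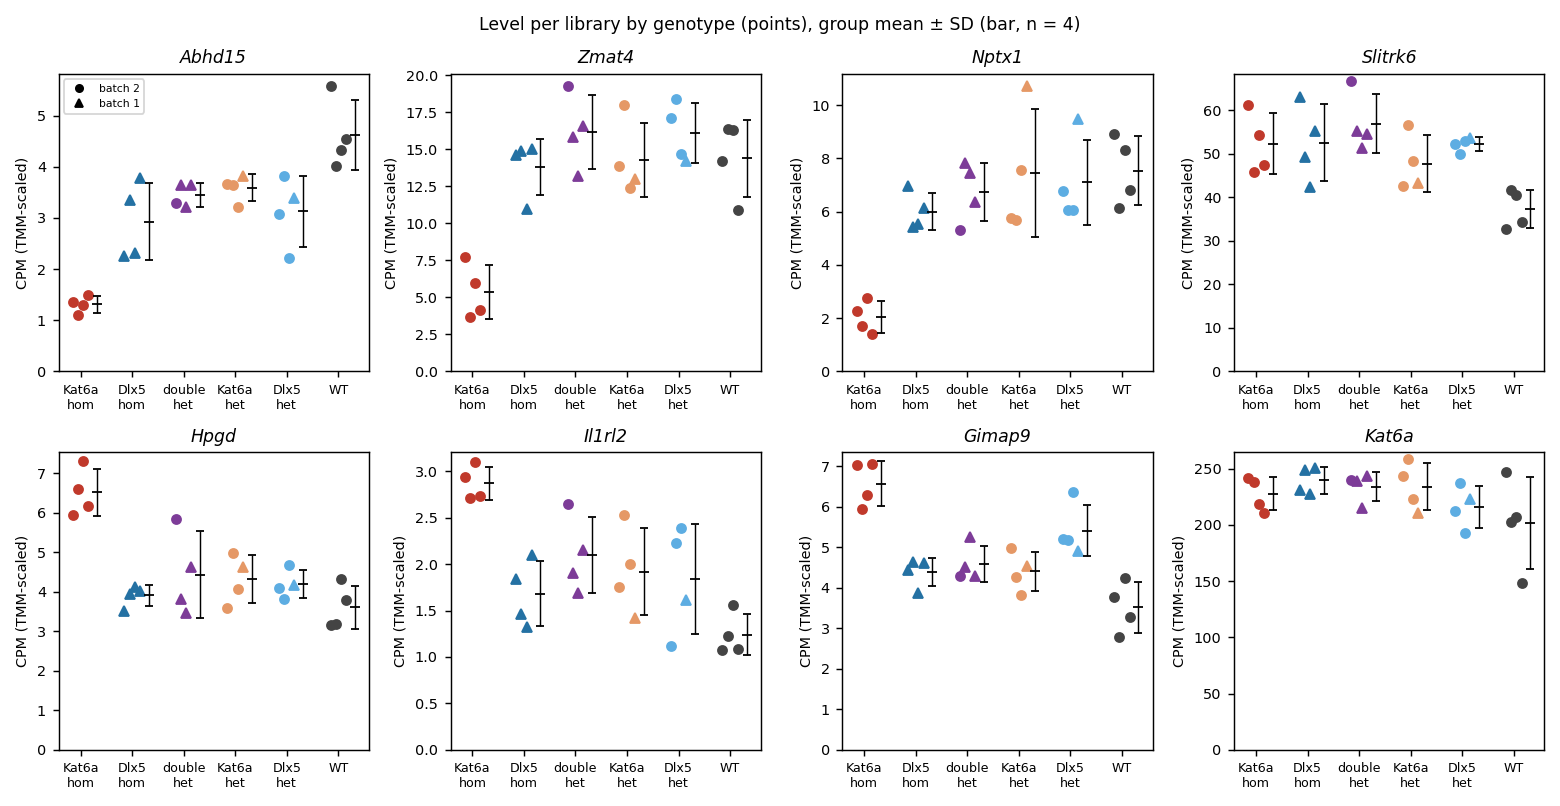
Level of each of the 7 genes and of Kat6a in every library (points, TMM-scaled CPM on a linear axis from 0) by genotype, with the group mean ± SD (n = 4) as a bar. Circles are batch 2 and triangles batch 1. Abhd15, Zmat4 and Nptx1 lie lower in all 4 Kat6a homozygous labelled libraries than in the other 20, whereas for Slitrk6 all 20 mutant libraries lie above the 4 wild type libraries. The share of all genes with the Slitrk6 pattern was not counted.

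Abhd15 (Entrez gene 67477, GRCm38 chromosome 11, 77515117 to 77520628, plus strand) was lowest in the libraries labelled Kat6a homozygous. Its level was 1.36, 1.10, 1.29 and 1.5 CPM there, against 5.59, 4.01, 4.32 and 4.54 CPM in wild type libraries. The groups did not overlap, and the highest homozygous labelled library lay well under the lowest wild type library. The log2 fold change was −1.82 (SE 0.20), a fold of 0.283 with a 95% interval of 0.213 to 0.374. This interval, like those given below for other chosen genes over wild type, makes no allowance for the choice of the gene. The libraries labelled Kat6a homozygous held 13 to 18 counts of Abhd15 each, so single libraries there are imprecise. The means of the other groups were 2.93 ± 0.76 CPM in Dlx5 homozygous labelled, 3.45 ± 0.23 in double heterozygous, 3.59 ± 0.26 in Kat6a heterozygous and 3.13 ± 0.69 in Dlx5 heterozygous libraries (SD, n = 4 each). These 4 groups lay between the other 2 and overlapped one another. Wild type was thus at the top of the order, and every library of every mutant group lay below all 4 wild type libraries. The share of all genes that do so was not counted, and the wild type libraries took part in the choice of Abhd15.

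The 300 bases around the annotated start of Abhd15 are shown because this gene had the richest CG content of the 5 genes whose promoters could be matched (all but Zmat4 and Nptx1). The RefSeq sequence of GRCm38.p6, chr11:77514867-77515166, plus strand, 250 bases before to 50 after the start, has CG dinucleotides in capitals.
Abhd15: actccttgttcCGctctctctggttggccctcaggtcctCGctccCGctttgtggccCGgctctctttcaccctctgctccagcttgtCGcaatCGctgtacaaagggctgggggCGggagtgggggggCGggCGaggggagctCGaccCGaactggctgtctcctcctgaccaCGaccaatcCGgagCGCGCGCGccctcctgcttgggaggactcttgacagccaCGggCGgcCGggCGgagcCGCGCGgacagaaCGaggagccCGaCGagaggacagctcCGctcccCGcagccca
It held 29 CG dinucleotides, and 87.1% of 32851 RefSeq mouse promoters of the same length held fewer. The GC box letters GGGCGG, searched on both strands, occurred 4 times, and 35.7% of all promoters held them at least once. The windows of Slitrk6 and Gimap9 held 4 and 8 CG dinucleotides. The homeodomain core letters TAATTA, which 5.29% of all promoters hold, were in none of the 5 windows, which says only that these letters are not there.

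In the GENCODE annotation of the same assembly, Abhd15 overlapped the protein-coding genes Trp53i13, Gm10392 and Taok1 on the opposite strand. On the RefSeq coordinates given above, Trp53i13 overlapped Abhd15, ending at 77515921. Taok1 did not, since it starts at 77529162. Which annotation the counting used is not given. Gm10392 has no row in the count table and was not analysed here. No source used here says whether the counting used strand, and reads of the overlaps may have gone to either gene. Trp53i13 averaged 14.9 ± 0.85 CPM in libraries labelled Kat6a homozygous and 16.9 ± 2.3 CPM in wild type libraries (SD, n = 4 each), a log2 fold change of −0.18 (SE 0.11, edgeR adjusted p = 0.499). Taok1 averaged 130 ± 5.6 CPM in libraries labelled Kat6a homozygous and 111 ± 30 CPM in wild type libraries (SD, n = 4 each), a log2 fold change of 0.21 (SE 0.13, edgeR adjusted p = 0.487). Neither Trp53i13 nor Taok1 was called.

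Zmat4 (Entrez gene 320158, chromosome 8, 23647326 to 24063117, plus strand) was at 7.70, 3.65, 5.94 and 4.14 CPM in libraries labelled Kat6a homozygous, against 14.2, 16.4, 16.3 and 10.9 CPM in wild type libraries. All 4 homozygous labelled libraries lay below all wild type libraries, although both groups were spread widely. The log2 fold change was −1.42 (SE 0.18), a fold of 0.375 with a 95% interval of 0.29 to 0.485. In contrast to Abhd15, the other mutant groups averaged near wild type, with 13.8 ± 1.9 CPM in Dlx5 homozygous labelled, 16.2 ± 2.5 in double heterozygous, 14.3 ± 2.5 in Kat6a heterozygous, 16.1 ± 2.0 in Dlx5 heterozygous and 14.4 ± 2.6 CPM in wild type libraries (SD, n = 4 each). None of these neighbours in the order differed beyond its spread. The libraries labelled Kat6a homozygous were the ones outside the common range of 10.9 to 19.3 CPM.

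Zmat4 lies on the chromosome that carries Kat6a, with its start 0.788 Mb from that of Kat6a (chromosome 8, 22859442 to 22943259). Of the 24 other tested genes that start within 2 Mb of Kat6a, none was called by edgeR between libraries labelled Kat6a homozygous and wild type libraries. Their log2 fold changes ran from −0.83 to 1.22 with a median of −0.05, 11 positive and 13 negative, and 222 of all genes tested, 1.53%, were called (1970 at an unadjusted p under 0.05). Within 5 Mb, 0 of 60 were called. The gene nearest before Zmat4, Sfrp1, a secreted Wnt antagonist, averaged 112 ± 3.7 CPM in libraries labelled Kat6a homozygous and 123 ± 7.4 CPM in wild type libraries (SD, n = 4 each; log2 fold change −0.13, SE 0.07, edgeR adjusted p = 0.43). The nearest after it, Tcim, averaged 27.7 ± 2.2 CPM and 22.7 ± 1.9 CPM in the same groups (log2 fold change 0.30, SE 0.09, edgeR adjusted p = 0.103). No neighbour of Zmat4 was called lower with it.

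**Figure D2:**
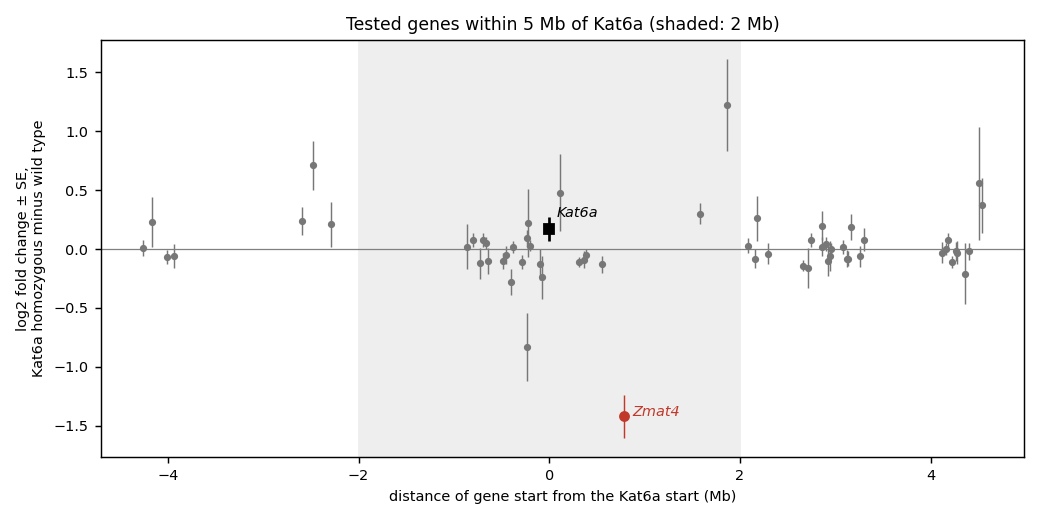
Log2 fold change ± SE of each tested gene in libraries labelled Kat6a homozygous over wild type libraries (vertical axis) against the distance of its start from that of Kat6a in Mb (horizontal axis), with the 2 Mb window shaded. Zmat4 lies at −1.42 and Kat6a at 0.17, and most other genes lie near 0.

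Nptx1 (Entrez gene 18164, chromosome 11, 119538719 to 119547820, minus strand) was at 2.26, 1.70, 2.76 and 1.41 CPM in libraries labelled Kat6a homozygous, against 8.93, 6.14, 8.30 and 6.81 CPM in wild type libraries. The groups did not overlap, and Nptx1 had the most negative log2 fold change of the 7 genes. Its log2 fold change was −1.90 (SE 0.17), a fold of 0.269 with a 95% interval of 0.21 to 0.344. Nptx1 is best known from neurons, and summed neuron markers overlapped between the groups (162 to 420 CPM in libraries labelled Kat6a homozygous and 136 to 600 CPM in wild type libraries, with 0 of 14 tested markers called by edgeR and a median log2 fold change of −0.48). Without the 4 neuron-rich replicate 2 libraries the Nptx1 log2 fold change was −1.92. In tissue RNA, fewer cells of a type and less RNA per cell cannot be told apart. The other groups averaged 6.00 ± 0.70 CPM in Dlx5 homozygous labelled, 6.73 ± 1.1 in double heterozygous, 7.44 ± 2.4 in Kat6a heterozygous and 7.10 ± 1.6 in Dlx5 heterozygous libraries, against 7.54 ± 1.3 CPM in wild type libraries (SD, n = 4 each). Neighbours in this order overlapped. Of the 7 genes, Nptx1 had the largest fitted batch effect, −0.61 on the log2 scale (batch 2 minus batch 1), and the highest Kat6a heterozygous and Dlx5 heterozygous libraries, 10.7 and 9.49 CPM, were the only batch 1 libraries of their groups.

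Slitrk6 (Entrez gene 239250, chromosome 14, 110747338 to 110755204, minus strand) behaved differently from the other genes that were higher. Its level was 61.2, 45.9, 54.4 and 47.4 CPM in libraries labelled Kat6a homozygous, against 32.7, 41.7, 40.4 and 34.4 CPM in wild type libraries, a log2 fold change of 0.50 (SE 0.11). The groups did not overlap, but the other mutant groups were as high. Libraries labelled Dlx5 homozygous had 63.0, 49.2, 42.3 and 55.2 CPM, and double heterozygous libraries had 66.6, 55.2, 51.3 and 54.6 CPM. Kat6a heterozygous libraries had 42.6, 56.7, 48.3 and 43.2 CPM, and Dlx5 heterozygous libraries had 52.2, 49.9, 53.0 and 53.6 CPM. Every mutant library of the series lay above all 4 wild type libraries, whichever gene was mutated. How many of all genes do the same was not counted, and these wild type libraries took part in the choice of the gene. The libraries labelled Kat6a homozygous, at 45.9 to 61.2 CPM, lay within the span of the other mutant libraries. Against Dlx5 heterozygous libraries their log2 difference was −0.04 (SE 0.12, 95% interval −0.28 to 0.20), and against double heterozygous libraries −0.23 (SE 0.14, 95% interval −0.51 to 0.05). For Slitrk6, a comparison with wild type alone and a comparison with the other mutants therefore give different pictures. Summed otic and eye markers were 8.38 to 10.9 CPM in libraries labelled Kat6a homozygous, 9.82 to 16.3 CPM in the other mutant libraries and 16.8 to 19.9 CPM in wild type libraries, with 0 higher and 2 lower of 5 tested markers called by edgeR in libraries labelled Kat6a homozygous over wild type. Their part in the Slitrk6 values was not tested.

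Hpgd (Entrez gene 15446, chromosome 8, 56294552 to 56321046, plus strand) was at 5.96, 6.61, 7.32 and 6.17 CPM in libraries labelled Kat6a homozygous, against 3.16, 3.19, 4.32 and 3.79 CPM in wild type libraries. These libraries were above the other 20, although double heterozygous replicate 1, at 5.84 CPM, came close. The log2 fold change over wild type was 0.86 (SE 0.15), a fold of 1.82 with a 95% interval of 1.46 to 2.26. The other groups averaged 3.91 ± 0.27 CPM in Dlx5 homozygous labelled, 4.44 ± 1.1 in double heterozygous, 4.32 ± 0.61 in Kat6a heterozygous and 4.20 ± 0.36 in Dlx5 heterozygous libraries, against 3.61 ± 0.55 CPM in wild type libraries (SD, n = 4 each). The order below the libraries labelled Kat6a homozygous was not resolved, since these 5 groups overlapped.

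Il1rl2 (Entrez gene 107527, chromosome 1, 40324589 to 40367555, plus strand) was at 2.94, 2.71, 3.10 and 2.73 CPM in libraries labelled Kat6a homozygous, against 1.08, 1.23, 1.56 and 1.09 CPM in wild type libraries. The groups did not overlap, and the log2 fold change of 1.23 (SE 0.22), a fold of 2.35 with a 95% interval of 1.72 to 3.20, was the highest among the 7 genes. Libraries held only 12 to 39 counts of Il1rl2. The other groups averaged 1.68 ± 0.35 CPM in Dlx5 homozygous labelled, 2.10 ± 0.41 in double heterozygous, 1.92 ± 0.47 in Kat6a heterozygous and 1.84 ± 0.59 in Dlx5 heterozygous libraries (SD, n = 4 each), between the Kat6a homozygous labelled and the wild type mean of 1.24 ± 0.22 CPM. Double heterozygous replicate 1 reached 2.65 CPM, just below the lowest homozygous labelled library, and once the fitted batch effect was removed the groups overlapped. Against double heterozygous libraries the log2 difference was 0.15 (SE 0.26, 95% interval −0.38 to 0.68), against 1.08 (SE 0.27) for double heterozygous over wild type libraries.

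The promoters of Hpgd and Il1rl2 are shown because both genes were higher in the same libraries, and because they differ in CG content from each other and from Abhd15. CG dinucleotides are in capitals. The Hpgd sequence is chr8:56294302-56294601 and the Il1rl2 sequence is chr1:40324339-40324638, both on the plus strand of GRCm38.p6 from RefSeq.
Hpgd: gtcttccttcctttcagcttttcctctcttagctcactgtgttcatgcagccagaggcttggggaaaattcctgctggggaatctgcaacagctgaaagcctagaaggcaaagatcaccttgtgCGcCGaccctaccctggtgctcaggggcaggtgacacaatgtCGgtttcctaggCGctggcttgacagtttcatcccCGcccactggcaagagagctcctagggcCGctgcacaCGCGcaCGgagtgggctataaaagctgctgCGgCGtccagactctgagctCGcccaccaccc
Il1rl2: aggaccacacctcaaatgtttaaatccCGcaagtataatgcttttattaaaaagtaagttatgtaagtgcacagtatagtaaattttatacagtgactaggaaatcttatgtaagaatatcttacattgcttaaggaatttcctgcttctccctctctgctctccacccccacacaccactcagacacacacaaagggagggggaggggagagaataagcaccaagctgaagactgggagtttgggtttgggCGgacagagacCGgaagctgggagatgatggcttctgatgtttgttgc
Hpgd held 12 CG dinucleotides, above 60.4% of all promoters, and Il1rl2 held 3, above 23.3%. Each held the letters TATAAA and the letters GGGCGG once, on either strand; 13.6% of all promoters hold TATAAA. The windows shown thus differed in CG density. Abhd15 was shown for its CG content and is the only lower gene with a matched promoter. Whether CG density goes with the direction of a difference was not tested.

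Gimap9 (Entrez gene 317758, chromosome 6, 48676121 to 48679116, plus strand) was at 7.02, 5.93, 6.29 and 7.05 CPM in libraries labelled Kat6a homozygous, against 3.77, 2.78, 4.24 and 3.28 CPM in wild type libraries. The groups did not overlap, and the log2 fold change was 0.89 (SE 0.14), a fold of 1.86 with a 95% interval of 1.52 to 2.27. Next in the order came Dlx5 heterozygous libraries with 5.41 ± 0.64 CPM, of which replicate 3 at 6.35 CPM lay within the Kat6a homozygous labelled range. The libraries labelled Dlx5 homozygous averaged 4.39 ± 0.35 CPM, double heterozygous libraries 4.59 ± 0.45 CPM and Kat6a heterozygous libraries 4.40 ± 0.49 CPM, against 3.52 ± 0.63 CPM in wild type libraries (SD, n = 4 each). These middle groups did not differ beyond their spread. Summed macrophage and leukocyte markers were 46.5 to 67.7 CPM in libraries labelled Kat6a homozygous and 36.1 to 48.5 CPM in wild type libraries, with 2 of 11 tested markers called higher by edgeR. Summed endothelial markers were 434 to 505 CPM and 409 to 451 CPM in the same groups, with 0 of 12 called, and no marker of either list was at 0 throughout. Their part in the Gimap9 values was not tested.

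All 7 genes had Kat6a homozygous labelled libraries that did not overlap with wild type libraries, as the choice of the genes makes likely; over all genes tested, 6.4% did not overlap in that comparison. Set against all 20 other libraries as measured, Abhd15, Zmat4 and Nptx1 lay lower throughout, as did 0.517% of all genes, and Hpgd and Il1rl2 lay higher throughout, as did 0.152% of all genes. Once the fitted batch effect was removed, Il1rl2 overlapped with other mutants and no longer lay higher throughout. Slitrk6 and Gimap9 overlapped with other mutants.

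**Figure D3:**
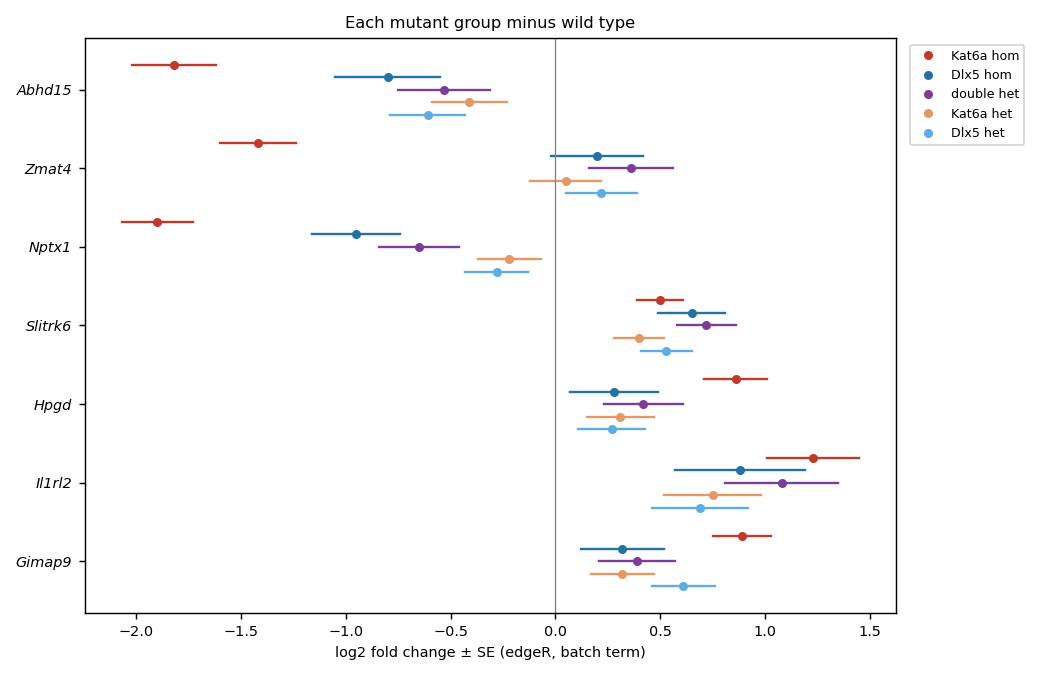
Log2 fold change ± SE of each gene in each mutant group over wild type (edgeR with a batch term). All 5 comparisons share the same 4 wild type libraries. Zmat4 is low only in the libraries labelled Kat6a homozygous, whereas Slitrk6 stands between 0.40 and 0.72 in all 5 mutant groups.

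The other mutant groups were set against the same wild type libraries, so their values share those libraries with the ones above and with each other. For Abhd15 the log2 fold change was −0.80 (SE 0.25) in Dlx5 homozygous labelled, −0.53 (SE 0.22) in double heterozygous, −0.41 (SE 0.18) in Kat6a heterozygous and −0.61 (SE 0.18) in Dlx5 heterozygous libraries. The share of all genes whose libraries all lay below wild type was 2.29%, 3.3%, 1.76% and 1.74% in these comparisons in the same order. For Slitrk6 the log2 fold changes were 0.65 (SE 0.16), 0.72 (SE 0.14), 0.40 (SE 0.12) and 0.53 (SE 0.12), and the shares of all genes whose libraries all lay above wild type were 2.32%, 2.82%, 1.25% and 1.88%. Zmat4 stood at 0.20 (SE 0.22), 0.36 (SE 0.20), 0.05 (SE 0.17) and 0.22 (SE 0.17). These 4 values were above 0, unlike the −1.42 of the libraries labelled Kat6a homozygous. Il1rl2 stood at 0.88 (SE 0.31), 1.08 (SE 0.27), 0.75 (SE 0.23) and 0.69 (SE 0.23), and Hpgd at 0.28 (SE 0.21), 0.42 (SE 0.19), 0.31 (SE 0.16) and 0.27 (SE 0.16). Nptx1 stood at −0.95 (SE 0.21), −0.65 (SE 0.19), −0.22 (SE 0.15) and −0.28 (SE 0.15), below 0 in each as in the libraries labelled Kat6a homozygous. Gimap9 stood at 0.32 (SE 0.20), 0.39 (SE 0.18), 0.32 (SE 0.15) and 0.61 (SE 0.15). Values for the libraries labelled Dlx5 homozygous rest on the batch term, because they share no batch with wild type libraries. Those for double heterozygous libraries rest on it in large part, because only replicate 1 of that group shares a batch with wild type libraries. The fitted batch effect (log2, batch 2 minus batch 1) was −0.61 for Nptx1 and 0.42 for Il1rl2.

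Of the comparisons made, 3 used neither wild type nor Kat6a homozygous labelled libraries, and in these the 7 genes were tested over all genes. The 3 share libraries and are not separate observations. Double heterozygous libraries serve in the first 2 given below, and Dlx5 heterozygous libraries in the first and the last. The groups compared also differ in their mix of batches, so all 3 rest in part on the batch term. Double heterozygous libraries over Dlx5 heterozygous libraries show a mutant Kat6a allele added to a mutant Dlx5 allele. edgeR called none of the 7 genes there, against 2 of all genes (0.0138%), and 1 of the 7 was at an unadjusted p under 0.05, against 5.9% of all genes. Double heterozygous libraries over Kat6a heterozygous libraries show a mutant Dlx5 allele added. None of the 7 was called, against 4 of all genes (0.0276%), and 2 of the 7 were at an unadjusted p under 0.05, against 5.91% of all genes. In Dlx5 homozygous labelled libraries over Dlx5 heterozygous libraries none of the 7 and none of all genes (0%) was called, with 1 of the 7 and 10.8% of all genes at an unadjusted p under 0.05. DESeq2 and limma voom called none of the 7 in any of the 3 comparisons, and over all genes in the last they called 1 and 2.

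Nptx1 had the smallest p of the 7 genes in the last comparison. Its log2 fold change was −0.67 (SE 0.18, 95% interval −1.05 to −0.30, edgeR adjusted p = 0.455) in Dlx5 homozygous labelled over Dlx5 heterozygous libraries. As measured, Dlx5 homozygous labelled libraries had 6.95, 5.41, 5.53 and 6.13 CPM, against 6.79, 6.06, 6.07 and 9.49 CPM in Dlx5 heterozygous libraries. These values overlapped as measured and did not once the fitted batch effect was removed. After that removal 6.58% of all genes lay lower in all Dlx5 homozygous labelled libraries than in any Dlx5 heterozygous library. The log2 fold change was −0.26 without the batch term (edgeR adjusted p = 0.535) and −0.66 within batch 1 (edgeR adjusted p = 0.43), where the 9.49 CPM library is the only Dlx5 heterozygous one. In double heterozygous libraries Nptx1 stood at −0.37 over Dlx5 heterozygous (SE 0.17, edgeR adjusted p = 0.771) and at −0.43 over Kat6a heterozygous libraries (SE 0.17, edgeR adjusted p = 0.724). Without the batch term they were −0.09 and −0.14, neither of them called. Within batch 1 they were −0.40 and −0.58, each against a single heterozygous library. Within batch 2 they were −0.25 and −0.26, both from the only double heterozygous library there. The Nptx1 values thus depended on how batch was handled.

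Neuron markers differed between the same libraries, with none of the 14 tested called by edgeR in any of the 3 comparisons. In Dlx5 homozygous labelled over Dlx5 heterozygous libraries 13 of 14 were negative, like Nptx1, with a median log2 fold change of −1.97 and sums of 137 to 169 CPM in Dlx5 homozygous labelled libraries, against 161 to 507 CPM in Dlx5 heterozygous libraries. In double heterozygous libraries 13 of 14 were positive, unlike Nptx1, with a median of 0.81 over Dlx5 heterozygous and 0.98 over Kat6a heterozygous libraries. Their sums were 240 to 435 CPM in double heterozygous, 148 to 675 CPM in Kat6a heterozygous and 161 to 507 CPM in Dlx5 heterozygous libraries. With a neuron marker covariate Nptx1 stood at −0.85 in Dlx5 homozygous labelled over Dlx5 heterozygous libraries (edgeR adjusted p = 0.0806), and at −0.30 and −0.26 in double heterozygous over Dlx5 heterozygous and over Kat6a heterozygous libraries. Without the 4 neuron-rich replicate 2 libraries these values were −0.67, −0.38 and −0.48, none of them called.

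Slitrk6 in double heterozygous libraries was 0.32 above Kat6a heterozygous libraries on the log2 scale (SE 0.12, 95% interval 0.07 to 0.58, edgeR adjusted p = 0.724), higher in 13 of 16 pairs of libraries. The log2 difference was 0.31 within batch 1, where replicate 4 is the only Kat6a heterozygous library. It was 0.43 within batch 2, where replicate 1, at 66.6 CPM, is the only double heterozygous library. Each of these values thus rests on a single library on one side. Gimap9 was at 4.44, 4.64, 3.88 and 4.60 CPM in Dlx5 homozygous labelled libraries, against 5.21, 5.17, 6.35 and 4.90 CPM in Dlx5 heterozygous libraries. The groups did not overlap, as for 8.5% of all genes, and the log2 fold change of −0.29 was not called (SE 0.17, 95% interval −0.64 to 0.07, edgeR adjusted p = 0.505). Zmat4 in the same comparison was at −0.02 (SE 0.20, 95% interval −0.43 to 0.39). For Abhd15 the log2 difference was 0.07 (95% interval −0.34 to 0.49) for double heterozygous over Dlx5 heterozygous libraries, and for Hpgd it was 0.14 (95% interval −0.21 to 0.49). Il1rl2 stood at 0.38 (95% interval −0.10 to 0.87) in that comparison.

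**Figure D4:**
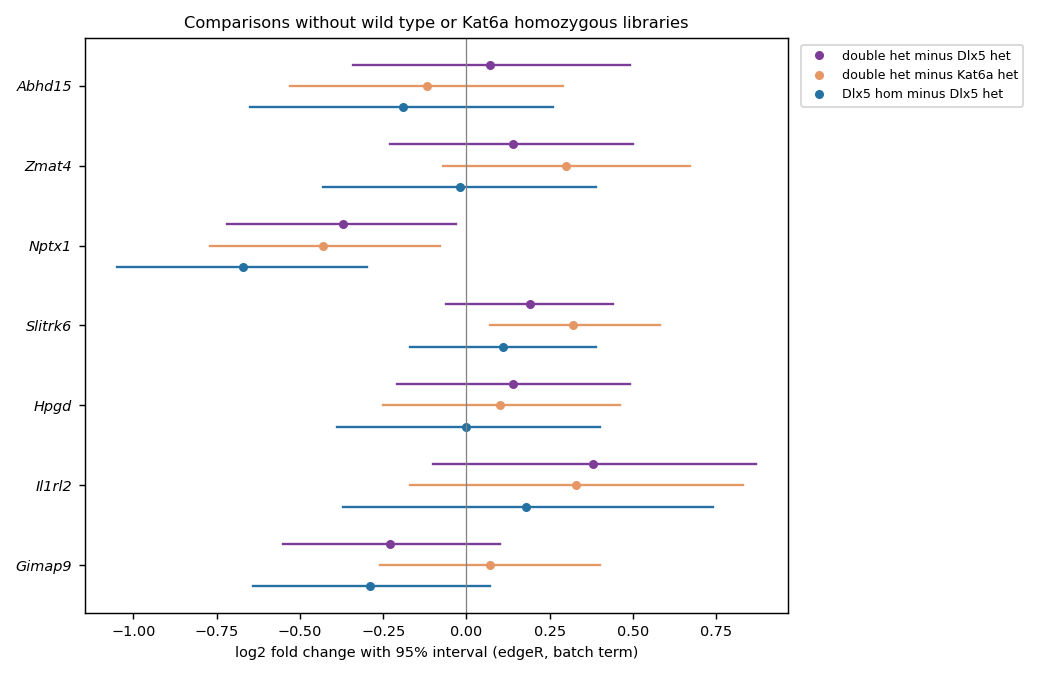
Log2 fold change with 95% interval of each gene in the 3 comparisons without wild type or Kat6a homozygous labelled libraries. These comparisons share libraries with one another. Most intervals cross 0, and the intervals of Nptx1 in all 3 and of Slitrk6 in double heterozygous over Kat6a heterozygous libraries do not, although none passed adjustment over all genes.

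Genes of the same families and pathways were examined next in libraries labelled Kat6a homozygous over wild type libraries, with 1.53% of all genes called (0.469% higher and 1.06% lower) and a median log2 fold change of 0.01 over all genes. Of 18 other tested genes of prostaglandin synthesis, transport, breakdown and reception, none was called with Hpgd (median log2 fold change 0.06). Per kb of gene length Cbr1, a carbonyl reductase, was the most abundant of them with a mean of 57.1 CPM per kb over all libraries, against 2.62 CPM per kb for Hpgd. Cbr1 averaged 59.2 ± 5.0 CPM in libraries labelled Kat6a homozygous and 60.1 ± 12 CPM in wild type libraries (SD, n = 4 each). Ptgis, the prostacyclin synthase, averaged 20.2 ± 1.6 CPM and 26.9 ± 3.3 CPM in the same groups, a log2 fold change of −0.42 (SE 0.11) that missed the threshold (edgeR adjusted p = 0.0537).

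Among pentraxins, AMPA receptor genes and associated genes, 1 of 7 other tested genes was called, lower like Nptx1. Gria4, an AMPA receptor subunit, averaged 2.40 ± 0.43 CPM (2.03 to 3.02) in libraries labelled Kat6a homozygous and 4.33 ± 0.71 CPM (3.28 to 4.81) in wild type libraries (SD, n = 4 each), a log2 fold change of −0.86 (SE 0.18, edgeR adjusted p = 0.0125). Gria4 was not called without the 4 neuron-rich replicate 2 libraries, at −0.76 (edgeR adjusted p = 0.081), and its adjusted p ranged from 0.00151 to 0.081 over 36 alternatives. Ptx3, a secreted pentraxin of innate immunity, averaged 8.22 ± 0.52 CPM and 11.3 ± 1.3 CPM in the same groups, and its log2 fold change of −0.46 was just outside the threshold (SE 0.12, edgeR adjusted p = 0.0502). Nptx2, another neuronal pentraxin, stood at −0.37 (SE 0.35, edgeR adjusted p = 0.695). The median of the 7 was −0.22.

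Of 12 other tested SLITRK and LRRTM genes, receptor phosphatase partners, neurotrophins and neurotrophin receptors, none was called with Slitrk6 (median 0.10). Slitrk5, which is also its nearest tested neighbour on chromosome 14, averaged 13.4 ± 1.5 CPM in libraries labelled Kat6a homozygous and 13.0 ± 1.3 CPM in wild type libraries (SD, n = 4 each; log2 fold change 0.04, SE 0.12, edgeR adjusted p = 0.919). Ptprf, a receptor phosphatase, was the most abundant of the list per length, at a mean of 85.0 CPM per kb, against 11.7 CPM per kb for Slitrk6.

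Of 10 other tested genes of the interleukin-1 receptor family and its signalling, none was called with Il1rl2 (median 0.03). Il1rap, the shared co-receptor, averaged 6.21 ± 0.47 CPM in libraries labelled Kat6a homozygous and 6.29 ± 1.1 CPM in wild type libraries (SD, n = 4 each). Il1r1, the nearest tested gene before Il1rl2 on chromosome 1, averaged 1.89 ± 0.22 CPM and 1.32 ± 0.28 CPM in the same groups, a log2 fold change of 0.49 that was not called (SE 0.25, edgeR adjusted p = 0.392).

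In the GIMAP cluster, 1 of 4 other tested genes was called, higher like Gimap9. Gimap4, whose start lies 8.46 kb from that of Gimap9, averaged 8.31 ± 1.2 CPM (7.25 to 9.52) in libraries labelled Kat6a homozygous and 5.81 ± 0.12 CPM (5.72 to 5.97) in wild type libraries (SD, n = 4 each), a log2 fold change of 0.51 (SE 0.13, edgeR adjusted p = 0.0388). That call was lost in 12 of 36 alternatives, among them leaving out any 1 of the 4 wild type libraries, Kat6a homozygous labelled replicate 2 (edgeR adjusted p = 0.136) or replicate 4 (edgeR adjusted p = 0.145). Gimap6, the most abundant of the family per length with 6.15 CPM per kb, averaged 10.6 ± 0.95 CPM and 10.3 ± 0.95 CPM in the same groups. Gimap1 and Gimap8 stood at −0.17 (SE 0.28) and 0.03 (SE 0.31). Neighbouring GIMAP genes thus had unequal values. The sums of leukocyte and endothelial markers given for Gimap9 apply to Gimap4 as well, and their part was not tested.

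Among 18 other tested genes, the ABHD family and Pde3b, 1 was called, lower like Abhd15 but by less. Abhd8 averaged 42.7 ± 2.7 CPM in libraries labelled Kat6a homozygous and 53.1 ± 6.6 CPM in wild type libraries (SD, n = 4 each), a log2 fold change of −0.31 (SE 0.08, edgeR adjusted p = 0.0497). That value sits at the threshold, and Abhd8 was called in only 13 of 36 alternatives, losing its call without wild type replicate 2 (edgeR adjusted p = 0.191) or replicate 4 (0.126), or without any 1 of the libraries labelled Kat6a homozygous (0.068 to 0.152). Pde3b, the binding partner of Abhd15 in fat cells, averaged 74.4 ± 6.4 CPM and 76.4 ± 7.1 CPM in the same groups (log2 fold change −0.04, SE 0.07, edgeR adjusted p = 0.85). Of 9 other genes with matrin-type or related zinc fingers none was called with Zmat4 (median −0.04), and of 8 genes of KAT6-type complexes, Kat6a included, none was called (median 0.06). In the 3 comparisons without wild type and Kat6a homozygous labelled libraries, edgeR called 0 genes of these 8 lists.

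**Figure D5:**
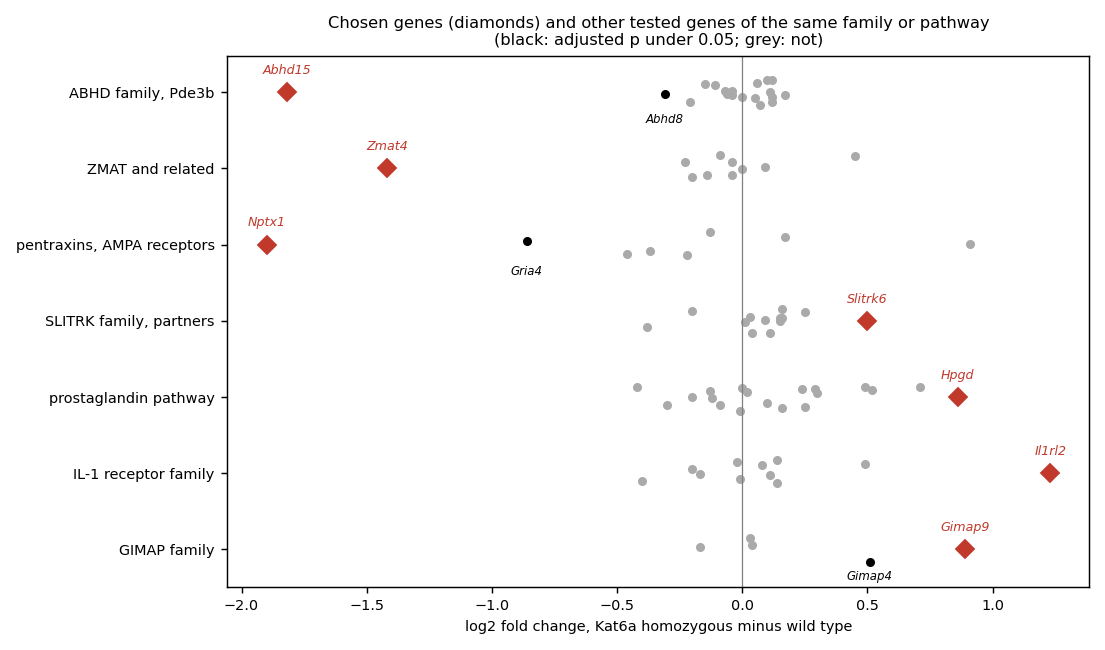
Log2 fold change in libraries labelled Kat6a homozygous over wild type libraries for each chosen gene (diamonds, not tested) and the other tested genes of its family or pathway (points, black where edgeR adjusted p was under 0.05). Gria4, Gimap4 and Abhd8 are the black points, at −0.86, 0.51 and −0.31.

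The 3 nearest tested genes on each side of each of the 7 genes gave 42 neighbours. They were taken by order and not by distance. Between starts, the distance ran from −7.02 kb (Trp53i13 to Abhd15) to 6180 kb (Gpc6 to Slitrk6), so not all are local genes. Between libraries labelled Kat6a homozygous and wild type libraries edgeR called Gimap4 and none of the others, against 1.53% of all genes, and it called 0 in the other 3 comparisons. Closest to a call among the rest were Rbm26 and AI854703. Rbm26, a distant neighbour of Slitrk6 (−5640 kb between starts), stood at 0.25 (SE 0.07, edgeR adjusted p = 0.0906). AI854703, a neighbour of Gimap9 (−48 kb), stood at −0.80 (SE 0.24, edgeR adjusted p = 0.0983). Nptx1, Slitrk6 and Gimap9 overlapped no annotated gene. Zmat4, Hpgd and Il1rl2 overlapped only predicted loci or a pseudogene that have no row in the count table.

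Levels per length set the 7 genes apart from abundant arch genes. Slitrk6 averaged 11.7 CPM per kb over the 24 libraries, above 54.2% of the genes tested. Gimap9 followed with 3.48, Zmat4 with 3.20 and Hpgd with 2.62 CPM per kb, above 29.8%, 28.7% and 25.7% of genes. Nptx1 with 1.16, Il1rl2 with 0.996 and Abhd15 with 0.976 CPM per kb lay above 15.9%, 14.2% and 14% of genes. Kat6a averaged 24.7 CPM per kb.

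The genes most like each of the 7 over all 24 libraries were found by Pearson correlation of log2 CPM after removal of the fitted batch effect. These correlations are descriptions, since the 4 libraries of a genotype are not independent points. They also include the Kat6a homozygous labelled and wild type libraries that chose the 7 genes. Correlations among the 7 genes, and with any gene that differs between those groups, are therefore in part fixed by the choice. For Nptx1 they were Smoc1, a matricellular protein gene (r = 0.95), Dlx6os1, a noncoding RNA that overlaps Dlx6 (r = 0.94), and Enpp2, the autotaxin gene (r = 0.91). For Abhd15 they were Smoc1 (r = 0.88), Dlx6os1 (r = 0.86) and Nptx1 (r = 0.86). Abhd15 and Nptx1 thus had leading genes in common, yet their own r was −0.02 once each library was taken as its deviation from its group mean. For Zmat4 they were the collagen gene Col8a2 (r = 0.96), Astn1 (r = 0.93) and 3110099E03Rik (r = 0.93). Col8a2 averaged 13.9 CPM in libraries labelled Kat6a homozygous and 33.0 CPM in wild type libraries.

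For Slitrk6 the leading genes were Igf1, the insulin-like growth factor gene (r = 0.89), the collagen gene Col6a3 (r = 0.88) and Mpped2 (r = 0.87). Mpped2 recurred on deviations from group means (r = 0.86), which none of the other leading genes did. Slitrk6 and Zmat4 also varied together within groups (r = 0.71 on deviations) while their overall r was 0.23. Postn, the periostin gene, was among the leading 3 for both Hpgd (r = 0.75) and Il1rl2 (r = 0.80), and these genes had r = 0.72 with each other and 0.37 on deviations. For Gimap9 the leading genes were Slc43a3 (r = 0.82), Gask1b (r = 0.75) and Kitl, the gene of the Kit ligand (r = 0.74). Correlations of low genes such as Il1rl2 and Abhd15 carry counting error, which differs with depth between libraries.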

How the data were processed

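The values used are raw read counts per Entrez gene, which the authors deposited with gene lengths as 1 table and again as 24 single files holding the same values. Per the submitters' processing notes, CASAVA 1.8.2, featureCounts and mm10 were used; aligner, annotation and strandedness stay not given in the sources used here. Per the labels' protocols, libraries came from a stranded mRNA kit. Of 27179 entries, 568 without an identifier (0.182% to 0.259% of counts) were left out; 25275 of 26611 identifiers matched a symbol. Counts of replicate libraries varied 2.91 to 21.8 times more than sampling noise allows (chi-square over degrees of freedom), so none was counted as a duplicate.

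edgeR 4.0.16 (R 4.3.3; filterByExpr by group, TMM, robust quasi-likelihood) was fitted to all 24 libraries with 6 group means and batch (17 residual degrees of freedom; common BCV, the biological coefficient of variation, 0.0896). A call is an adjusted p under 0.05 (Benjamini-Hochberg, over all 14506 genes). The standard error is the fold change over the root of the test statistic. Log2 CPM for correlations used a prior count of 2 and genes of at least 1 CPM. Coordinates and promoters are from RefSeq GRCm38.p6, the assembly that mm10 names. The procedure was tested on simulated counts.

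The 7 genes and all lists were chosen with earlier results of these data known. Other genes were named by a rule: called genes and the most abundant genes of each family list, the nearest genes, called genes near Kat6a and the 3 most similar genes. Sfrp1, Tcim, Ptgis, Ptx3, Nptx2, Il1rap, Il1r1, Pde3b, Gimap1 and Gimap8 are neighbours, related genes or partners of a chosen gene, and those outside the rule were chosen after their values were seen, as were Rbm26 and AI854703 among the neighbours. Alternatives were RLE factors, 2 other filters, DESeq2 1.42.0, limma 3.58.1 voom with quality weights and robust eBayes, no batch term, each batch alone, only the groups compared, a replicate block, a neuron covariate and each library left out. Leaving out the 4 neuron-rich replicate 2 libraries together, and voom with eBayes that is not robust, were chosen after seeing the data.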

Additional observations from a re-analysis of the deposited data

Results flagged for a closer look

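In 1 of the 42 sets of 4 libraries (7 genes in 6 groups) a library stood apart from the others by a gap test. Zmat4 was at 11.0 CPM in Dlx5 homozygous labelled replicate 3, whereas the other libraries of that group were at 14.6 to 15.0 CPM, so that the gap made up 0.891 of the range. Chance alone flags about 1 in 20 such sets.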

How the results depend on the processing

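In the 3 comparisons without wild type and Kat6a homozygous labelled libraries, 0 of the 7 genes were called in each of 37, 37 and 36 alternatives, with a smallest adjusted p of 0.0806 (Nptx1, Dlx5 homozygous labelled over Dlx5 heterozygous, neuron covariate). Counts of all genes called varied more, and the causes were not tested. For Kat6a homozygous labelled over wild type libraries the count was 222, and it was 98 in batch 2 alone, 64 with only these groups, 83 without the 4 neuron-rich libraries and 415 with limma voom (robust eBayes) or 419 with eBayes not robust, an alternative chosen after seeing the data. Leaving out single libraries gave 122 to 444 genes: wild type replicate 1 left out gave 444, wild type replicate 2 gave 142, and Kat6a homozygous labelled replicates 1 and 2 gave 122 and 141. For double heterozygous over Dlx5 heterozygous libraries (2 genes) it was 1 with no batch term, with only these groups or without the neuron-rich libraries, 6 in batch 2 alone or with limma voom, 0 in batch 1 alone, and 0 to 2 with single libraries left out. For double heterozygous over Kat6a heterozygous libraries (4 genes) it was 7 with no filter, 1 with at least 1 CPM in 12 libraries, 10 in batch 2 alone, 0 in batch 1 alone or with the neuron covariate, 8 with the replicate block, 89 without the neuron-rich libraries (all double heterozygous ones kept, so that the groups are unbalanced in neuron markers), 15 with DESeq2, 36 with limma voom (41 with eBayes not robust), and 0 to 7 with single libraries left out. For Dlx5 homozygous labelled over Dlx5 heterozygous libraries (0 genes) it was 2 with no batch term, in batch 1 alone or with limma voom, robust or not, 1 with the replicate block or DESeq2, 7 with the neuron covariate, 18 without the neuron-rich libraries, and 0 to 2 with single libraries left out. No batch 2 value exists for it, nor a batch 1 value for Kat6a homozygous labelled libraries.

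The replicate numbers were not taken to pair libraries: deviations from group means correlated at 0.095 to 0.569 for same-numbered Kat6a homozygous labelled and wild type libraries, with 5 of 8 libraries closest to their own number, and some correlations were negative in each other comparison. With the replicate block 292 genes were called for Kat6a homozygous labelled over wild type and 2 for double heterozygous over Dlx5 heterozygous libraries, and no call of the 7 genes changed.

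Depth limits Il1rl2 and Abhd15 most, with 12 and 13 counts in their lowest libraries. Where 1 batch holds a single library of a group, that library is assumed to vary like the others.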
